A study of Mus musculus with 16 samples.

Results

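The Atm-/- NR and Atm-/- veh groups were compared in the cerebellum, 4 arrays against 4, out of 16 arrays in all. These 8 arrays were chosen by their labels, and the other 8, from WT veh and WT NR mice, were used for the spread between arrays and for the same contrast in WT. Both groups were Atm-/- mice of the line B6;129S4-Atmtm1Bal/J, in which a targeted allele is carried by every cell of the animal, labelled as males and 3.5 months old. Atm-/- NR mice had nicotinamide riboside (NR) in their water, 12 mM or 3.5 mg/ml, for 2 months from 6 weeks of age, and Atm-/- veh mice drank water without it.

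Atm is a kinase that is activated by DNA double-strand breaks and that signals through p53 to arrest the cell cycle or remove the cell. Its loss causes ataxia telangiectasia, in which Purkinje and granule cells of the cerebellum degenerate. NR is taken up by cells and turned into NAD+, the cofactor of oxidoreductases and the substrate that sirtuins and PARP enzymes consume.

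The RNA of each mouse was hybridised to an Agilent array of 1 colour, on which a spot is brighter the more RNA its probe has bound. Values are quantile normalized log2 signals, and a difference is Atm-/- NR minus Atm-/- veh on that scale. A probe was called at a limma adjusted p under 0.05, and was termed bright when its mean over 16 arrays lay above 9.04, the median of the 37253 kept probes. Between 39134 and 41905 probes were well above background on the Atm-/- veh arrays, and between 34945 and 37817 on the Atm-/- NR arrays (p = 0.0286 by a two-sided exact permutation test, which cannot go lower with 4 against 4). Outlier spots rose in number from 98.8 ± 24.4 with vehicle to 237.8 ± 22.1 with NR (SD, n = 4, same exact test, p = 0.0286). All 8 arrays lay on 1 slide, with Atm-/- veh in row 1 and Atm-/- NR in row 2, so slide row and treatment cannot be told apart. Atm-/- veh 3 and Atm-/- NR 4 had Xist above background and no signal of Y-linked genes, against their labels. Both kept probes of Atm were lower on every Atm-/- veh array than on every WT veh array. The dimmer one ran from 7.91 to 8.08 with vehicle and from 7.72 to 7.88 with NR, with a difference of -0.15 ± 0.08 (SE, limma adjusted p = 0.259). The brighter one differed by 0.06 ± 0.11 (SE, limma adjusted p = 0.749).

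NR treatment went with many small changes in the Atm-/- cerebellum. Of 37253 probes, 3366 were called (9.04%), 1697 higher (4.56%) and 1669 lower (4.48%) in Atm-/- NR. The median size of a called change was 0.44, or 1.36-fold, and 254 called probes changed by more than 1. Of the called probes, 3117 had groups of arrays that did not overlap, against 7539 of all kept probes (20.2%). Bright probes were called more often than dim ones, at 13.1% against 4.95%, and 1283 bright probes were higher and 1161 lower.

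**Figure D1:**
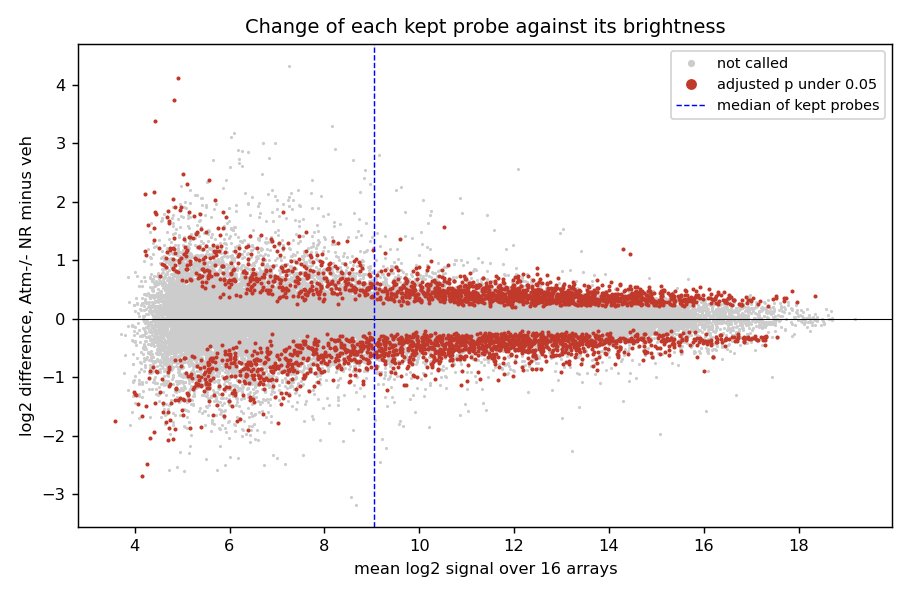
Log2 difference between Atm-/- NR and Atm-/- veh (vertical axis) against the mean log2 signal over 16 arrays (horizontal axis) for the 37253 kept probes. Red points are the 3366 called probes and the dashed line marks the median signal of 9.04, to the right of which 13.1% of probes were called.

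The count of calls depended on single arrays. Leaving out 1 array at a time gave between 854 calls (without Atm-/- veh 1) and 4279 (without Atm-/- veh 2). It gave 887 without Atm-/- NR 3, 1323 without Atm-/- veh 4, 1481 without Atm-/- NR 2, 1993 without Atm-/- NR 4, 2267 without Atm-/- veh 3 and 2730 without Atm-/- NR 1. With only the 12 arrays that had Y-gene signal (3 Atm-/- veh, 3 Atm-/- NR, 4 WT veh and 2 WT NR), 388 probes were called, of which 344 were among the 3366. All 3366 kept their sign there, with a median size of 0.44 in both. Those arrays are part of the 16, and 3117 of the 3366 had groups without overlap. The kept sign is therefore not separate support. Of 120 called probes followed through the alternatives, 25 were called under every alternative in which they were fitted, which was 17 alternatives each and 16 for a probe of Ces5a. Not every called probe named here was followed.

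**Figure D2:**
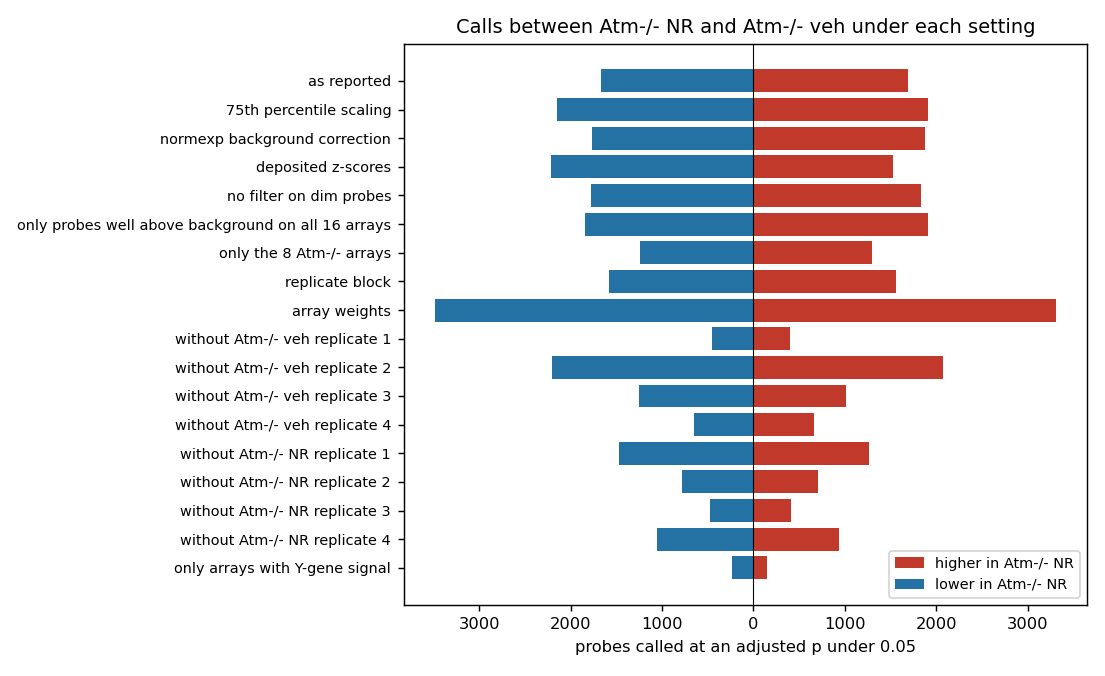
Number of probes called higher (red, to the right) and lower (blue, to the left) in Atm-/- NR under each setting, with the reported values in the first row. The bars run from 154 higher and 234 lower with only arrays that had Y-gene signal to 3315 higher and 3484 lower with array weights.

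The 12 largest bright rises and the 12 largest bright falls among called probes whose groups did not overlap are described first. Car8, a carbonic anhydrase-related protein of Purkinje cells that restrains calcium release through the IP3 receptor, was measured by 2 bright probes, at 14.45 and 14.30. On 1 of them it lay at 14, 13.94, 13.47 and 13.93 in Atm-/- veh and at 15.04, 15.03, 15.02 and 15.04 in Atm-/- NR. The groups did not overlap, and Atm-/- veh 3 was the lowest array. The difference was 1.2 ± 0.24 (SE, limma adjusted p = 0.0139), or 2.29-fold, and the second probe gave 1.10 ± 0.31 (adjusted p = 0.0417). Without the arrays that lacked Y-gene signal the adjusted p of these probes were 0.0908 and 0.193, with differences of 1.08 and 0.90. Car8 was the called gene among 10 measured Purkinje markers (10%, against 11.5% of all named genes), whose median difference was -0.05. In bulk tissue fewer cells of a type and less RNA per cell cannot be told apart. In WT mice the same probes differed by 1.47 and 1.43 between NR and veh, which was not called.

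The other large bright rises were smaller or more spread. Igsf1, an immunoglobulin superfamily membrane protein, lay at 9.10, 9.66, 9.43 and 9.43 in Atm-/- veh and at 10.10, 11.52, 11.81 and 10.48 in Atm-/- NR, a difference of 1.57 ± 0.46 (SE, limma adjusted p = 0.0476). Its other kept probes differed by 1.19 and 1.25 without a call, and the call itself held in 7 of 17 alternatives. Klhl1, an actin-binding kelch protein of the brain, ran from 8.70 to 8.93 with vehicle and lay at 9.37, 10.75, 10.96 and 9.47 in Atm-/- NR. Arrays 2 and 3 of Atm-/- NR were the high ones for both genes, and for Klhl1 leaving out Atm-/- NR 3 gave an adjusted p of 0.134. Kcnj2, an inward rectifier potassium channel, rose by 0.91 ± 0.22, Klhl13, an adaptor of a ubiquitin ligase, by 0.87 ± 0.20, Hdac9, a class IIa histone deacetylase, by 0.87 ± 0.20 and Cdkl2, a cyclin-dependent kinase-like kinase, by 0.83 ± 0.21 (SE). Fbxo32, the F-box protein atrogin-1 of a ubiquitin ligase, rose by 0.84 ± 0.22, and the unnamed transcript Gm31711 by 1.13 ± 0.22 (SE).

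Wdr78, Cys1 and Cfap69 were also among the bright rises, and are described together after their values were seen. Wdr78, an axonemal dynein intermediate chain, lay at 9.48, 9.74, 9.29 and 9.93 in Atm-/- veh and at 10.43, 10.63, 10.76 and 10.59 in Atm-/- NR. All 4 Atm-/- NR arrays were above all 4 Atm-/- veh arrays, with a difference of 0.99 ± 0.19 (SE, limma adjusted p = 0.0115; 0.0683 with only arrays that had Y-gene signal). Cys1, cystin of the primary cilium, rose from between 9.87 and 10.18 to between 10.57 and 11.21 (0.84 ± 0.14, SE, adjusted p = 0.00727) and was called under all 17 alternatives. Cfap69, a protein of motile cilia, rose by 0.89 ± 0.23 (adjusted p = 0.0297) on 1 probe and differed by 0.91 on the other, which was not called. With only arrays that had Y-gene signal its call was lost (adjusted p = 0.166). None of the 8 markers of ependymal and ciliated cells was called (0%, against 11.5% of all named genes). Their differences were above 0 in 8 of 8, with a median of 1.02, and the median in WT was -0.29. Tmem212 differed by 3.29 ± 1.73 and Foxj1, the master transcription factor of motile cilia, by 0.22 ± 0.23 (SE). The mean level of that list was -1.83, -0.91, -0.16 and 0.33 in Atm-/- veh and 0.76, 0.35, 0.71 and 0.64 in Atm-/- NR, relative to the mean of 16 arrays. Atm-/- veh 1 and 2 were the low arrays, and the part of these cells in the values of Wdr78, Cfap69 and Cys1 was not tested. The list's median was 0.78 without Atm-/- veh 1 and 1.24 without Atm-/- veh 4.

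**Figure D3:**
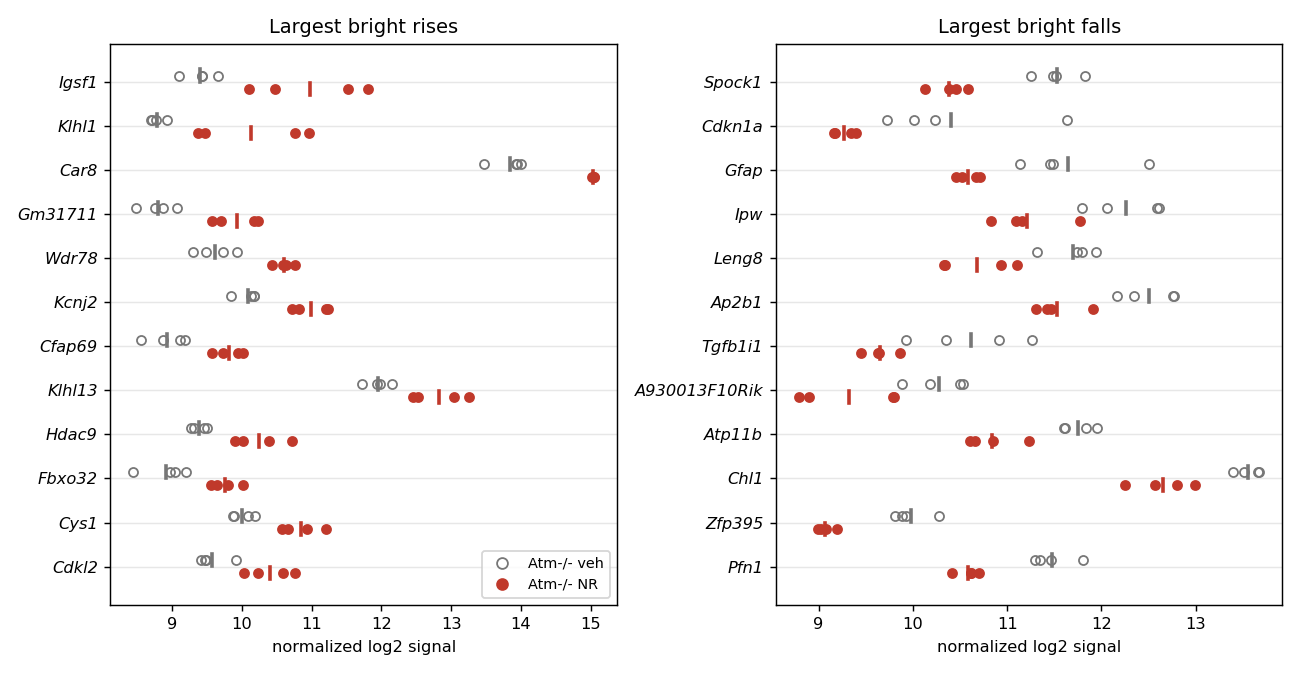
Normalized log2 signal (horizontal axis) of the 12 largest bright rises and the 12 largest bright falls on the 4 Atm-/- veh (open) and 4 Atm-/- NR (filled) arrays, with the group mean as a vertical bar. The groups do not overlap for any of the 24 genes, since the choice required it. Atm-/- veh 3 stands apart at 11.64 for Cdkn1a and at 12.50 for Gfap.

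The bright falls included Cdkn1a, Gfap and Pfn1. Cdkn1a, the cyclin-dependent kinase inhibitor p21 and a p53 target, lay at 10.01, 10.24, 11.64 and 9.72 in Atm-/- veh and at 9.34, 9.17, 9.17 and 9.39 in Atm-/- NR. Atm-/- veh 3 was the highest array, and the groups did not overlap. The difference was -1.13 ± 0.29 (SE, limma adjusted p = 0.0309), and it was -0.77 (adjusted p = 0.0452) with only arrays that had Y-gene signal. The call held in 11 of 17 alternatives and in 3 of the 8 that left out 1 array, was lost with only the 8 Atm-/- arrays (adjusted p = 0.107), and the size was as low as -0.73. Trp53 itself fell from 9.38, 8.99, 8.89 and 9.08 to 8.55, 8.21, 8.15 and 8.46 (-0.74 ± 0.16, adjusted p = 0.0165), a call that was lost without Atm-/- veh 1 (0.0577). Of 26 measured p53 targets and senescence genes these 2 were called lower and Glb1, lysosomal beta-galactosidase, higher by 0.33 ± 0.08 (SE). A dim probe of Glb1 differed by 0.03 without a call. The share called, 11.5%, was that of all named genes.

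Gfap, the intermediate filament of astrocytes and Bergmann glia, lay at 11.49, 11.46, 12.50 and 11.13 in Atm-/- veh and at 10.53, 10.67, 10.71 and 10.45 in Atm-/- NR. The difference was -1.06 ± 0.27 (SE, limma adjusted p = 0.0312), and its brighter probe differed by -0.75 ± 0.25 without a call (adjusted p = 0.0735). Atm-/- veh 3 was the highest array again. With only arrays that had Y-gene signal the difference was -0.73 and was not called (adjusted p = 0.102), and the call held in 8 of 17 alternatives and in 2 of the 8 that left out 1 array. No gene of the 10 markers of Bergmann glia and astrocytes was called on its brightest probe (0%, against 11.5% of all named genes). The list's median was 0.01.

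Pfn1, Atp11b, Zfp395 and Spock1 were called under all 17 alternatives. Pfn1, the actin monomer-binding protein profilin 1, lay at 11.81, 11.47, 11.35 and 11.30 in Atm-/- veh and at 10.41, 10.71, 10.62 and 10.62 in Atm-/- NR, a difference of -0.89 ± 0.16 (SE, limma adjusted p = 0.00894). Atp11b, a phospholipid flippase, fell by 0.92 ± 0.14 (adjusted p = 0.00616) and Zfp395, a zinc finger protein, by 0.90 ± 0.15 (adjusted p = 0.00738). Both had all 4 Atm-/- NR arrays below all 4 Atm-/- veh arrays. Spock1, a proteoglycan of the extracellular matrix, fell by 1.14 ± 0.17 (adjusted p = 0.00574) on 1 probe, while its brightest probe differed by 0.17 and a dim one by 0.60, neither called. The other bright falls were called under fewer alternatives: Leng8 in 16, Ipw in 13, Chl1, Ap2b1 and A930013F10Rik in 10 each, and Tgfb1i1 in 6 of 17, with 1 of the 8 that left out 1 array. Chl1, an adhesion molecule of the L1 family, fell by 0.90 ± 0.24 on a probe at 12.98, while its brightest probe at 15.03 differed by 0.18 without a call. Ap2b1, a subunit of the clathrin adaptor AP-2, fell by 0.98 ± 0.26 on its brighter probe and differed by 0.10 on the other. Noncoding transcripts were among the falls, with Ipw of the imprinted Prader-Willi region at -1.05 ± 0.23 and A930013F10Rik at -0.95 ± 0.24 (SE). Leng8, a nuclear RNA-processing protein, fell by 1.02 ± 0.21, and Tgfb1i1, the focal adhesion protein Hic-5, by 0.97 ± 0.28 (SE).

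Several probes of 1 gene are separate measurements of it. Of 5983 genes with 2 or more kept probes, 3211 (53.7%) had all of them differing in 1 direction. Among the 1283 of these genes with a call, 728 (56.7%) did. In 79 genes every kept probe was called in 1 direction, 26 higher and 53 lower. All 79 differed in that direction in WT mice too, as did 95.0% of all called probes and 69.7% of all kept probes. The WT agreement is therefore not particular to these genes. Bright probes alone measured 23 of the higher and 40 of the lower genes. Cdk4, the cyclin D-dependent kinase, Ube4b, a ubiquitin chain elongation factor, and Gm6981 were called lower, and Sarnp, an RNA-binding protein of mRNA export, higher on 3 probes each.

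The genes named for agreeing rises were Car8, Phf10, Lin28b, Tex9, Klhl5 and Hhip. Phf10, a subunit of the PBAF chromatin remodelling complex, lay at 10.88, 11.08, 10.96 and 11.03 in Atm-/- veh and at 11.66, 11.66, 11.71 and 11.72 in Atm-/- NR on 1 probe. Its differences were 0.70 ± 0.09 and 0.69 ± 0.09 (SE, limma adjusted p = 0.00574 for each), and both probes were called under all 17 alternatives. Hhip, which binds and sequesters Hedgehog ligands, lay at 9.38, 9.28, 9.15 and 9.17 and at 10.21, 9.91, 10.22 and 9.87. Its differences were 0.81 ± 0.12 (adjusted p = 0.00574) and 0.50 ± 0.13 (adjusted p = 0.0346). Tex9 rose by 0.69 ± 0.15 and 0.58 ± 0.11, and Klhl5, a kelch protein, by 0.53 ± 0.11 on its bright and 1.17 ± 0.34 on its dim probe (SE), which was called in 4 of 17 alternatives. Lin28b, which blocks the maturation of let-7, rose by 0.68 ± 0.19 (SE), in 7 of 17 alternatives. Its other probe was above background on 1 Atm-/- veh and 2 Atm-/- NR arrays, and its rise is not sized here. Smaller agreeing rises were found in Cox17, the copper chaperone of cytochrome c oxidase (0.31 and 0.46), Mrpl1 of the mitochondrial ribosome (0.34 and 0.44), Manf, an endoplasmic reticulum stress protein (0.33 and 0.34), and Rpf2 of ribosome assembly (0.37 and 0.70).

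The genes named for agreeing falls included Igf1r, Phf12, Fiz1, Cfl1 and Ces5a. Igf1r, the receptor of IGF1, lay at 10.68, 10.56, 10.60 and 10.49 in Atm-/- veh and at 9.91, 9.82, 9.70 and 9.83 in Atm-/- NR. The difference of -0.77 ± 0.08 had the lowest adjusted p of all probes (limma, 0.00355), and the second probe gave -0.84 ± 0.20 (adjusted p = 0.0221). Cfl1, the actin-severing protein cofilin 1, lay at 15.53, 15.46, 15.27 and 15.47 and at 14.90, 14.83, 14.81 and 14.82 on 1 probe. It fell by 0.59 ± 0.10 (adjusted p = 0.0068) there and by 0.88 ± 0.14 (adjusted p = 0.00651) on the other probe, under all 17 alternatives. Phf12, a subunit of a Sin3 histone deacetylase complex, fell by 0.69 ± 0.11 and 0.74 ± 0.12 (SE). Fiz1, a zinc finger protein, fell by 0.60 ± 0.09 and 0.62 ± 0.11 (SE). Ces5a, a carboxylesterase, was above background on all 4 Atm-/- veh arrays and on 0 of 4 Atm-/- NR arrays, so that its fall is not sized here. Among other agreeing falls were Polr2a, the largest subunit of RNA polymerase II (0.39 and 0.64 in size), Med12 of Mediator (0.59 and 0.60), Gps2, a transcriptional cofactor (0.51 and 0.72), and Gatad2b of NuRD (0.51 and 0.59).

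In 22 genes, probes were called in both directions, and in 19 of them the brighter probe rose and the dimmer one fell. Cdk5, a neuronal kinase, rose by 0.41 ± 0.07 on a probe at 13.63 and fell by 0.38 ± 0.09 on one at 12.45 (SE). Tuba1b, an alpha tubulin, rose by 0.29 ± 0.08 at 17.98 and fell by 0.33 ± 0.09 at 15.85 (SE). Psmd1, a proteasome subunit, rose by 0.35 ± 0.09 at 14.72 and fell by 0.56 ± 0.09 at 12.43, and Tef, a circadian transcription factor, rose by 0.37 ± 0.10 at 16.90 and fell by 0.33 ± 0.07 at 14.30 (SE). The exceptions, with the brighter probe falling, were Bcat2, Epb41l4a and Satb1.

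This was then measured over all genes, a comparison chosen after these values were seen. In 2421 genes with a bright brightest and a bright dimmest probe, the brightest probe differed more upwards than the dimmest in 65.2%, against 56.5% of all 5983 genes with 2 or more kept probes. The median over genes of the brightest minus the dimmest probe was -0.12, -0.06, -0.02 and -0.06 in Atm-/- veh and 0.06, 0.01, 0.01 and 0.04 in Atm-/- NR, relative to 16 arrays. All 4 Atm-/- NR arrays lay above all 4 Atm-/- veh arrays, by 0.09 (exact permutation test, two-sided, p = 0.0286). The same difference was 0.03 in WT (p = 0.343, same exact test). Over all 5983 genes, dim probes included, it was 0.06 in Atm-/- (p = 0.2, same exact test). These were 2 of 6 combinations of probes and scaling computed, and the restriction to bright probes was made after both were seen. The probes well above background and the outlier spots, given above, moved with it, and their part was not tested.

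**Figure D4:**
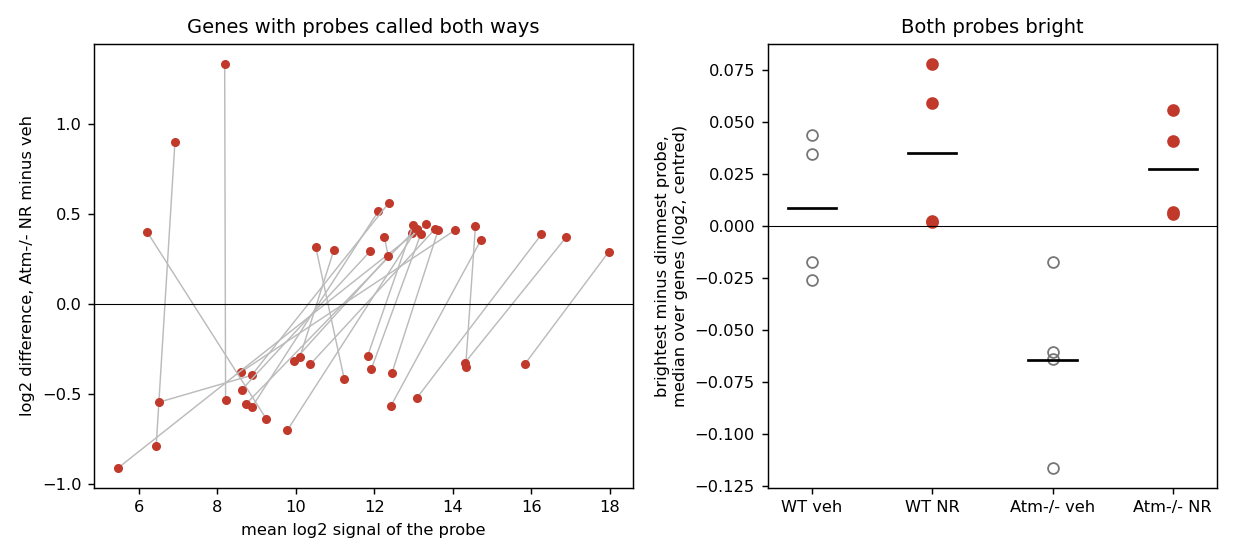
Left, log2 difference (vertical axis) against mean log2 signal (horizontal axis) of the called probes of 22 genes called in both directions, with probes of 1 gene joined by a line. Right, the brightest minus the dimmest probe per array, as the median over 2421 genes with both probes bright (points, arrays; bars, group means), which runs from -0.12 to -0.02 in Atm-/- veh and from 0.01 to 0.06 in Atm-/- NR.

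Genes were then grouped by pathway, with each gene on its brightest kept probe. Of 16737 named genes, 1920 were called (11.5%), 1117 higher (6.67%) and 803 lower (4.8%), with a median difference of 0.04. Among those that were bright on that probe, 974 were called higher, 708 lower and 9691 not called. In the actin cytoskeleton list, 7 of 31 genes were called (22.6%), 3 higher and 4 lower, with 15 above 0, 16 below and a median of -0.003. The falls were Pfn1 and Cfl1, as above, Arpc4 of the Arp2/3 complex by 0.61 ± 0.11 and the capping protein Capzb by 0.55 ± 0.09 (SE). Arpc4 ran from 13.15 to 13.61 with vehicle and from 12.64 to 12.75 with NR, and both Arpc4 and Capzb were called under all 17 alternatives. The rises were Cdc42, a small GTPase that directs actin assembly, by 0.47 ± 0.11, Cyfip1 of the WAVE complex by 0.33 ± 0.09 and Tpm3, a tropomyosin, by 0.31 ± 0.08 (SE). A second bright probe of Cdc42 differed by 0.05 without a call.

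On their brightest probes, all named genes held more rises than falls, and so did the lists of energy and protein metabolism. The shares called were 25.8% in the proteasome, 14.3% in heat shock proteins and in the mitochondrial unfolded protein response, 10.4% in the respiratory chain, 10.2% in ribosomal proteins and 9.09% in mitophagy and autophagy, against 11.5% of all named genes. That comparison was not matched for brightness, and bright probes were called more often than others, at 13.1% against 4.95%. A share of 14.3% is therefore not shown to be raised. In the respiratory chain and ATP synthase, 5 of 48 genes were called, all higher, 36 differed upwards and the median was 0.12. Ndufb3 of complex I lay at 15.28, 15.46, 15.35 and 15.39 in Atm-/- veh and at 15.72, 15.80, 15.81 and 15.78 in Atm-/- NR, a difference of 0.41 ± 0.08 (SE, limma adjusted p = 0.011). Ndufa8 rose by 0.38 ± 0.08, Uqcrfs1, the iron-sulfur protein of complex III, by 0.34 ± 0.09, Ndufa4 by 0.33 ± 0.09 and Atp5c1 of ATP synthase by 0.30 ± 0.07 (SE).

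In the proteasome, 8 of 31 genes were called, 6 higher and 2 lower, with a median of 0.11. Psmd6 of the regulatory particle rose by 0.47 ± 0.09, and Psmd1, Psma5, Psma7, Psmc2 and Psma6 by between 0.29 and 0.35 on the brightest probe, while Psmb7 fell by 0.39 ± 0.09 and Psmc5 by 0.40 ± 0.09 (SE). The other probes of Psmd6 differed by -0.13 and -0.10 without a call, and a dimmer probe of Psmd1 was called lower by 0.56 ± 0.09, as above. Heat shock proteins had 3 of 21 genes called, all higher: Hsp90aa1 by 0.37 ± 0.10, Dnajb1 by 0.35 ± 0.09 and Dnaja1 by 0.26 ± 0.07 (SE). Of 14 genes of the mitochondrial unfolded protein response, Afg3l2, a mitochondrial protease, rose by 0.42 ± 0.11 and Hspe1, a mitochondrial chaperonin, by 0.32 ± 0.08 (SE). Of 49 cytosolic ribosomal protein genes, Rpl7a, Rps20, Rpl5 and Rpl11 rose by between 0.22 and 0.34, and Rps15 fell by 0.31 ± 0.08 (SE). Of 33 mitophagy and autophagy genes, Atg12 rose by 0.54 ± 0.10 and Tomm20, an import receptor, by 0.44 ± 0.10, while Atg7, the activating enzyme of Atg12, fell by 0.31 ± 0.07 (SE). When each gene stood for the median over its kept probes, the median of the proteasome list was 0.05 and that of the respiratory chain 0.06. In the same way it was 0.08 for heat shock proteins, and 0.05 for ribosomal proteins and for the mitochondrial unfolded protein response. For mitophagy and autophagy the median went from 0.06 on the brightest probes to -0.02, and for all named genes from 0.04 to 0.02.

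In enzymes that make NAD 4.76% of genes were called and in those that consume it 19.1%, against 11.5% of all named genes. Of 21 synthesis and salvage genes, Nmnat2, the NAD synthase of axons, was called and fell from 11.17, 10.96, 10.96 and 11.07 to 10.59, 10.65, 10.63 and 10.58 (-0.43 ± 0.10, SE, limma adjusted p = 0.0249). Of 21 NAD-consuming enzymes, 1 was higher and 3 were lower, with a median of -0.16. Sirt3, the main mitochondrial deacetylase, rose by 0.42 ± 0.12 (adjusted p = 0.0427). Sirt6, a nuclear sirtuin, lay at 11.41, 11.13, 11.15 and 11.34 in Atm-/- veh and at 10.81, 10.74, 10.78 and 10.81 in Atm-/- NR. Its fall of 0.47 ± 0.09 (adjusted p = 0.0114) was called under all 17 alternatives and also on its dim probe. Tnks, tankyrase, fell by 0.53 ± 0.11 and Parp3, a DNA repair PARP, by 0.41 ± 0.08 (SE). A dimmer probe of Parp3 differed by -0.10 without a call. In the oxidative stress list, 3 of 26 genes were called (11.5%, the share of all named genes). Txnrd2, mitochondrial thioredoxin reductase, was higher by 0.36 ± 0.07 (SE). Keap1, the sensor that restrains Nrf2, and Hmox2, a heme oxygenase, were lower by 0.29 ± 0.06 and 0.45 ± 0.10 (SE).

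Of 41 axon guidance and adhesion genes, 5 were higher and 4 lower (22.0% called, against 11.5% of all named genes), and 29 differed upwards with a median of 0.21. Robo2, a Slit receptor, rose by 0.72 ± 0.21, Ephb1, an ephrin receptor, by 0.60 ± 0.15, Cntnap5a by 0.71 ± 0.20 and the contactins Cntn4 and Cntn1 by 0.64 ± 0.19 and 0.41 ± 0.11 (SE). L1cam, Nfasc, the netrin receptor Unc5c and Cntn2 fell by between 0.38 and 0.46 on their brightest probes. The other kept probes of L1cam differed by 0.01 and -0.001 and that of Cntn4 by -0.14, none of them called. Those of Nfasc differed by -0.39, -0.32 and 0.04, also without a call. Among 38 voltage-gated channels 10.5% were called, against 11.5% of all named genes. Kcna1 rose by 0.40 ± 0.11, and Kcna2 and Scn8a fell by 0.62 ± 0.13 and 0.28 ± 0.07 (SE). Of 36 glutamate and GABA receptor genes 2.78% were called, which was Grin1, the obligatory NMDA receptor subunit, lower by 0.58 ± 0.10 (SE). Of 27 vesicle release genes 7.41% were called, which were Vamp2 and Syp, lower by 0.43 ± 0.08 and 0.42 ± 0.10 (SE). Both shares lay below that of all named genes. Slc17a7, the vesicular glutamate transporter of granule cells, fell by 0.54 ± 0.13 (SE, limma adjusted p = 0.0263). It was the called gene of 10 granule cell markers (10%, against 11.5% of all named genes).

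Inflammation lists held 1 call. None of 26 genes of cGAS-STING and the interferon response was called by limma on its brightest probe, and Il18, a cytokine of the inflammasome, was the called gene of 21 measured inflammation and senescence factors (4.76%, against 11.5% of all named genes), higher by 0.43 ± 0.12 (SE). Of that list Il1a, Il1b, Il6, Ifng, Icam1, Tlr4, Mmp3 and Mmp12 had no kept probe and were not measured. The level of the interferon list was -0.17, -0.29, 1.09 and -0.27 with vehicle and ran from -0.10 to 0.02 with NR, and that of the inflammation list was 0.70 in Atm-/- veh 3 and between -0.17 and -0.13 in the other Atm-/- veh arrays. Without Atm-/- veh 3, the median difference of the interferon list went from -0.09 to 0.16 and that of the inflammation list from -0.26 to -0.06. That is 1 of the arrays without Y-gene signal. No gene was called among 11 microglial markers (median -0.17, and 0.03 without Atm-/- veh 3). None of the markers of oligodendrocytes, their precursors, molecular layer interneurons, Golgi and unipolar brush cells, endothelium, choroid plexus or blood was called. Each of these lists held between 6 and 11 measured genes, and 11.5% of all named genes were called. A list that short without a call does not show that its cells were unchanged. Tgfb1, a cytokine, fell by 0.82 ± 0.15 (SE), Nr1d1, a repressor of the circadian clock, by 0.65 ± 0.12, Ppp1r1b, a marker of neurons of other brain regions, by 0.58 ± 0.11 and Pdgfrb of pericytes by 0.45 ± 0.10 (SE). Of 23 immediate early genes none was called (0%, against 11.5% of all named genes). Of 33 genes of extracellular matrix 6.06% were called, below that same share. Spock3, a proteoglycan, rose by 0.47 ± 0.07 under all 17 alternatives, and Lamc1, a laminin chain, fell by 0.57 ± 0.11 (SE). Of 28 splicing genes 10.7% were called, against 11.5% of all named genes. On their brightest probes Hnrnpa1 rose by 0.40 ± 0.09 while Hnrnpk and Hnrnpd fell by 0.41 ± 0.09 and 0.54 ± 0.10 (SE). Other probes, none of them called, differed by 0.21 and -0.26 for Hnrnpa1, 0.04 for Hnrnpk and -0.0008 for Hnrnpd.

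**Figure D5:**
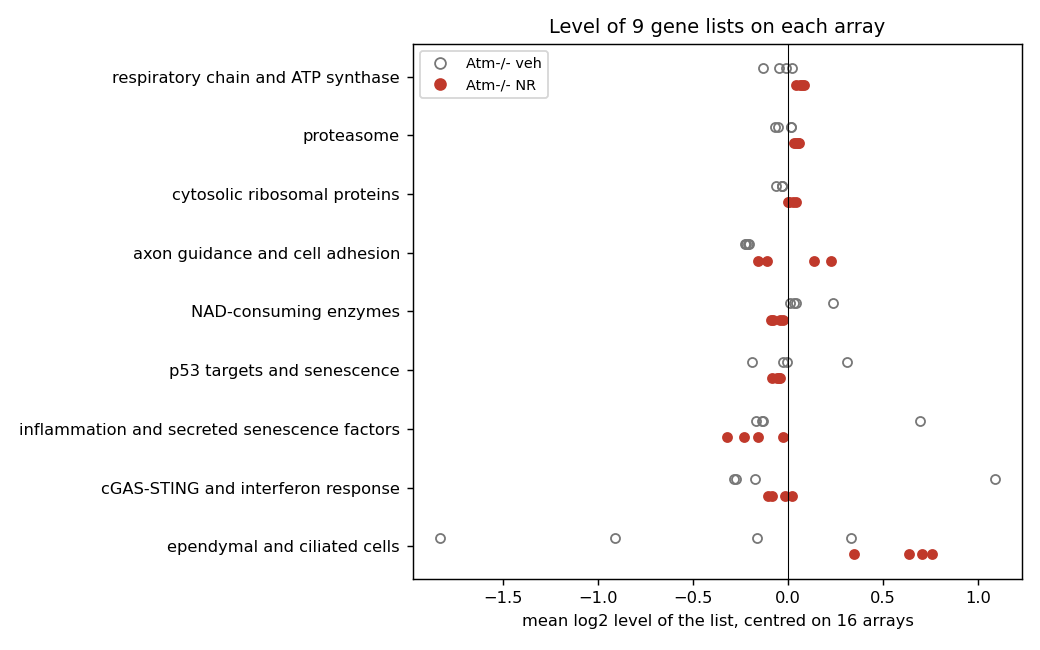
Mean log2 level of 9 gene lists on each Atm-/- veh (open) and Atm-/- NR (filled) array, relative to the mean of the 16 arrays (horizontal axis). Atm-/- veh 3 stands at 1.09 in the interferon list and at 0.70 in the inflammation list, and Atm-/- veh 1 at -1.83 in the list of ependymal and ciliated cells.

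Some genes were taken by hand from those the study listed for this contrast, a part of that list chosen on these arrays, so that they are not independent evidence and are not counted. Among them Fam216b rose by 1.32 ± 0.33, Fign, a microtubule-severing protein, by 0.93 ± 0.19, and Hdhd5 fell by 1.15 ± 0.15 (SE), the last 2 under all 17 alternatives.

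Length and promoter letters of the called genes are given as descriptions, with no test. The median genomic span was 27.2 kb for genes called higher, 21.3 kb for those called lower and 20.2 kb for genes not called. Among bright genes it was 28.9 kb for those called higher, 21.2 kb for those called lower and 22.8 kb for those not called. Over 4 classes of span with equal numbers of genes, the share called higher ran from 4.76% in the shortest to 8.29% in the longest genes, and the share called lower from 4.18% to 4.88%. Genes called in either direction had a median of 17 CG pairs in the 250 bases before their start, against 13 in genes not called. Among bright genes the medians were 18 for those called higher, 17 for those called lower and 16 for those not called. The letters TGACGTCA, the full cAMP response element, which reads the same on both strands, stood in the promoter window of 4.03% of 893 genes called higher, 2.44% of 657 called lower and 2.32% of 11653 not called, against 1.55% of 32841 windows in the RefSeq table. Among bright genes the element stood in 4.20% of those called higher, 2.23% of those called lower and 2.71% of those not called. The element was 1 of 4 motifs searched on both strands, beside the GC box GGGCGG, the TATA box TATAAA and the E box CACGTG. It was picked for printing after the shares were seen. Among 108 called named genes, 86 had a window in that table. How many of the 86 held the element is not given, and 3 genes that held it are printed here. The windows of these 3 genes (GRCm38.p6, the 250 bases before the start, 5′ to 3′ on the strand of the gene, element in capitals) follow, of which Hhip and Uqcrfs1 rose and Ap2b1 fell:
Hhip, chr8:80058009-80058258 (minus strand): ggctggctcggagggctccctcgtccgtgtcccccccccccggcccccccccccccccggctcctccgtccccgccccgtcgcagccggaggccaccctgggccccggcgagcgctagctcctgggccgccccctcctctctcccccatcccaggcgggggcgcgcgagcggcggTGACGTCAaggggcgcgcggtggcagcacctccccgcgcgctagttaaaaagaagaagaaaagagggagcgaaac
Uqcrfs1, chr13:30545317-30545566 (minus strand): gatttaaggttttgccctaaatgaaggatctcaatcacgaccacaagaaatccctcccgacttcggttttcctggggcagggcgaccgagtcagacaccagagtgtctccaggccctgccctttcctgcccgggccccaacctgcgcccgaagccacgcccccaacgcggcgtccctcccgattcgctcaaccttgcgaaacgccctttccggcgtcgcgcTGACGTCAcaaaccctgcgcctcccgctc
Ap2b1, chr11:83302447-83302696 (plus strand): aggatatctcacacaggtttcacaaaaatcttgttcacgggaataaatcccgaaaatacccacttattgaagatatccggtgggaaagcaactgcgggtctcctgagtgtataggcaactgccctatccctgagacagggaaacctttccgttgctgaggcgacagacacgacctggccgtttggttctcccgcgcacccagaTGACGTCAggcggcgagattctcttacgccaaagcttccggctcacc

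The element ended 67 bases before the start in Hhip, 21 in Uqcrfs1 and 39 in Ap2b1, on probes that differed by 0.81, 0.34 and -0.98.

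In WT mice, NR against veh had no called probe (0 of 37253 by limma, with 2838 at an unadjusted p under 0.05). The 3366 probes called in Atm-/- differed in the same direction in WT in 3199 cases (95.0%), against 69.7% of all kept probes, and the WT and Atm-/- contrasts share no array. Their median difference was 0.42 in Atm-/- and 0.15 in WT for the probes called higher, and -0.47 and -0.19 for those called lower. Slide row and treatment were paired in the same way on the WT slide. Outlier spots there numbered 174, 99, 99 and 155 with vehicle and 189, 257, 278 and 254 with NR. Probes well above background ran from 37843 to 42559 in WT veh and from 36402 to 40010 in WT NR. The part of these measures in the shared direction was not tested. The difference between the NR effects of Atm-/- and WT was called for 0 probes (0%), with 1962 at an unadjusted p under 0.05 and a lowest limma adjusted p of 0.839. No probe's NR effect was therefore shown to be larger in Atm-/- than in WT. For Igf1r the effect in WT was -0.32, for Phf10 0.27, for Pfn1 -0.31, for Wdr78 0.18 and for Car8 1.47, with unadjusted p of the difference of 0.0012, 0.0037, 0.021, 0.0088 and 0.45 (limma).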

How the data were processed

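Cerebellar RNA of 16 mice was hybridised to 1-colour Agilent arrays of 62976 spots, of which 3671 were controls. The authors deposited spot intensity values from Feature Extraction 12.0.3.1, already background-subtracted. A table of score values (z-scores), which the authors had quantile normalized on a log scale, was used as an alternative. Intensity was taken to log2, and arrays were quantile normalized on the spots of probes that passed the filter given next, outlier spots included. Spots of 1 probe were then averaged without outlier spots. A probe was kept when well above background on all 4 arrays of any group (at least 0.5 of its spots), leaving 37253 of 56605 probes and 16737 genes named through RefSeq (GRCm38.p6). The number of arrays limits the precision. Group means over 16 arrays were fitted with limma 3.58.1 (R 4.3.3, 12 residual degrees of freedom), with Benjamini-Hochberg adjustment over all kept probes. The script was tested on simulated data. Array counts were compared with exact permutation tests over 70 labelings.

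Genes were named by rule: the 12 largest bright rises and 12 largest bright falls among called probes without overlap, the 6 largest agreeing rises and 6 falls of genes with every probe called, and at most 6 called members of each of 38 lists. Probes called in both directions, genes with 3 called probes, and Cox17, Mrpl1, Manf, Rpf2, Polr2a, Med12, Gps2 and Gatad2b were picked with their values in view. Psmc2, Psma6, Tpm3, Cntn1, Cntn2 and Unc5c are called list members beyond 6 a list, and were not followed through the alternatives. A few genes that the rule names are not reported here. The members and lists were chosen with earlier results of these data known. Other scalings, background correction, filters, single arrays left out, a replicate block, array weights, the methods' t-test and the rule of the study methods were tried as alternatives.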

Additional observations from a re-analysis of the deposited data

Results flagged for a closer look

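In 21 of 322 groups of 4 arrays, 1 array stood far from the other 3, with a gap to the nearest of them that was too large a share of the group's range by Dixon's criterion. Chance gives about 1 in 20 such groups.

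Atm-/- veh 3 was that array most often. The gap was 0.979 and 0.857 of the range for the probes of Car8, 0.837 for Cntn4, 0.882 for Syp and 0.918 for Tex9, where Atm-/- veh 3 was low, and 0.849 for Lin28b, where it was high. Among gene lists it was 0.926 for extracellular matrix and collagens, 0.855 for NAD-consuming enzymes, 0.917 for cGAS-STING and the interferon response and 0.958 for inflammation and secreted senescence factors, with Atm-/- veh 3 high, and 0.872 for synaptic vesicle release, with Atm-/- veh 3 low. This array also lacked Y-gene signal.

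Atm-/- veh 2 stood high for Atg12 (0.9), Cdkl2 (0.879) and Il18 (0.907). Atm-/- veh 1 stood low for Adcy10 (0.889) and Kcnj2 (0.877) and high for Psmb7 (0.842), and Atm-/- veh 4 stood low for the cytosolic ribosomal proteins (0.866). In Atm-/- NR, array 1 stood low for Atg12 (0.897) and Ces5a (0.911), and array 2 high for a probe of Cfl1 (0.836).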

How the results depend on the processing

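The precision is limited by 4 arrays a group. Beside the reported 3366 calls (1697 higher, 1669 lower), 75th percentile scaling gave 4059 (1916 and 2143), normexp background correction 3651 (1881 and 1770), the deposited z-scores 3740 (1532 and 2208), no filter on dim probes 3617, probes above background on all 16 arrays 3748, and only the 8 Atm-/- arrays 2546. With the replicate block the count was 3140 (1559 and 1581), with 60 in place of 79 genes whose probes were all called one way. Arrays with the same replicate number had correlations of -0.053, 0.161, -0.099 and -0.001 between their deviations, so that the numbers did not pair the samples.

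Only arrays with Y-gene signal gave 388 calls (154 higher, 234 lower), 8 multi-probe genes and 2 calls for the difference between the NR effects of Atm-/- and WT, both on unnamed probes (-3.72 and -3.82, adjusted p = 0.0452 each by limma, against 0.841 and 0.839 with all arrays). Array weights gave 6799 (3315 and 3484) and 189 multi-probe genes. The methods' t-test gave 10391 (4719 and 5672) unadjusted and 3041 after Benjamini-Hochberg, the rule of the study methods 1443 (344 and 1099), and 1 value per gene 1553 (842 and 711), with fewer features tested. The cause was not tested for the others. Of the 92 called list members, 58 were called as the median over all kept probes of a gene.

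Leaving out 1 array at a time gave 854 to 4279 calls, 398 to 2078 higher and 456 to 2201 lower, 0 for the difference between the NR effects, 11 to 80 multi-probe genes and 27 to 101 list members. Probes well above background differed by -5455 to -4485.2, and the brightest minus the dimmest probe by 0.0744 to 0.107 (highest exact permutation p 0.0571, against 0.2 with a difference of 0.0574 over all pairs of probes).

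The alternatives reused the same arrays, so a kept direction is not separate support. No called probe that was followed through them changed direction. Of those not called, Nemp1 went from -0.0053 to 0.0318 with normexp, 0.0508 without Atm-/- veh 3, 0.00135 without veh 4, 0.0349 without NR 3, 0.0331 with only Y-gene arrays and 0.0113 with array weights. Cep164 went from -0.0137 to 0.0204 without veh 3, 0.0444 without NR 2 and 0.0123 without NR 3. Without NR 2, the brighter Atm probe went from 0.064 to -0.0649 and Mybpc1 from -0.22 to 0.0019. Over all single arrays left out, the highest value of the Atm probe was 0.14, and the lowest values of Cep164, Mybpc1 and Nemp1 were -0.0751, -0.325 and -0.0373. Of 380 medians of lists, 50 changed sign.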
